A study of Mus musculus with 6 samples.

Results

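*Calb1* and *Drd1* are the 2 genes described here. They were taken by gene symbol from the block of higher genes in the study's supplementary table, and each had 1 named probe (ASMM10P028516 and ASMM10P051766) among the 60915 probe names of the array and among 1726 genes that could be named. The table had been selected on the same comparison of the same arrays, so the difference of either gene between genotypes is described without a test. When that comparison was recomputed from the authors' normalized values, *Calb1* ranked 1075 and *Drd1* 1522 of the 1522 higher probes in order of p-value. *Drd1* was therefore the last probe inside the table's limit, although it ranked 143 by fold change.

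RNA came from the neocortex of adult mice that the labels call male, 3 KHSRP-KO mice with a constitutive deletion of a run of *Khsrp* exons on a C57Bl/6 background and 3 WT littermates, with no treatment and 1 array of 1 colour for each mouse. KHSRP is an RNA-binding protein that directs mRNAs with AU-rich elements to decay, and a constitutive deletion is not restricted to neurons. The supplementary table names the same samples prefrontal cortex where the labels say cortex, so how much of the cortex was taken is not settled. Between 71.3% and 82.6% of the spots that were not controls were well above background on each array, with the lowest share on KHSRP-KO array 2, and 0 were saturated. Precision is limited by having 3 arrays per genotype.

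Arrays of 2 KHSRP-KO mice went against the label for sex. Of 6 named genes of the Y chromosome (placed there by the GRCm38.p6 annotation), *Uty*, *Ddx3y*, *Kdm5d* and *Eif2s3y* were far lower on KHSRP-KO arrays 1 and 3 than on the WT arrays, while KHSRP-KO array 2 was close to them. The processed signal of *Uty* was 43.1 and 30.8 on KHSRP-KO arrays 1 and 3, against 2518 on KHSRP-KO array 2 and between 2778 and 3268 on the WT arrays. *Ddx3y* and *Kdm5d* were not well above background on KHSRP-KO arrays 1 and 3, whereas *Uty* and *Eif2s3y* still were. The other 2, *Uba1y* and *Gm21943* had been listed among the higher genes and were well above background on all KHSRP-KO arrays. Each difference below is therefore also given for KHSRP-KO array 2 and for KHSRP-KO arrays 1 and 3 apart. Samples that the labels call KHSRP-KO were taken as such, and *Khsrp* itself was not analysed here.

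Scan times in the file headers put the arrays in 3 pairs. KHSRP-KO arrays 2 and 3 shared a scan time, WT arrays 1 and 2 shared another, and KHSRP-KO array 1 shared one with WT array 3. Only the last pair held both genotypes, so for the other 4 arrays scan and genotype cannot be told apart. The last pair sets 1 array against 1, and *Uty*, *Ddx3y*, *Kdm5d* and *Eif2s3y* were far lower on its KHSRP-KO array.

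*Calb1* encodes calbindin, a cytosolic protein whose EF-hand loops bind calcium and which buffers calcium entering the cell. In the forebrain it marks a class of GABAergic interneurons, many upper-layer pyramidal cells, granule and pyramidal cells of the hippocampus and most projection neurons of the striatal matrix. *Drd1* encodes the D1 dopamine receptor, which couples through stimulatory G proteins to adenylyl cyclase and raises cyclic AMP. It is densest in projection neurons of the striatum that form the direct pathway and is present at a lower level in deep-layer pyramidal cells and some interneurons of the neocortex. Both genes are thus markers of neuron type and also of brain region. In tissue RNA, a difference in the number of cells of a type and a difference in RNA per cell cannot be told apart.

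*Calb1* had a processed signal, the background-subtracted intensity on a linear scale, of 6290, 6753 and 6082 on KHSRP-KO arrays 1, 2 and 3, and of 5496, 5108 and 5686 on WT arrays 1, 2 and 3. These values placed it between the 91.9 and the 94.0 percentile of all probes on every array. On the log2 scale, relative to the 75th percentile of the same array, the signal was 3.77, 4.26 and 4.15 on the KHSRP-KO arrays and 3.50, 3.36 and 3.75 on the WT arrays. All KHSRP-KO arrays lay above all WT arrays, as for 12.4% of 48364 probes, but KHSRP-KO array 1 stood above WT array 3 by only 0.020, and these arrays shared a scan time. The mean was 4.06 ± 0.26 (SD, n = 3) in KHSRP-KO and 3.54 ± 0.20 (SD, n = 3) in WT neocortex. The log2 difference was 0.52 (SE 0.19), or 1.44-fold.

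The order of the *Calb1* levels followed the scan pairs. The lowest were WT arrays 2 and 1, next came WT array 3 and KHSRP-KO array 1, and the highest were KHSRP-KO arrays 3 and 2. Neighbours within a scan pair were 0.14, 0.020 and 0.12 apart, each less than the SD of 0.23 pooled over the genotypes, whereas the steps from 1 pair to the next were 0.25 and 0.38. The same order of the 3 pairs was seen for 7.74% of the 41908 probes above background on every array. Scan time thus moved with the *Calb1* level, and its part in the difference between genotypes was not tested. KHSRP-KO array 2, on which these 4 Y-linked genes were at the level of the WT arrays, was 0.73 above the WT mean, and KHSRP-KO arrays 1 and 3 were on average 0.42 above it.

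*Drd1* had a processed signal of 4482, 9433 and 4039 on KHSRP-KO arrays 1, 2 and 3, and of 3109, 2848 and 2985 on WT arrays 1, 2 and 3. It lay between the 89.1 and the 94.98 percentile of all probes. The scaled log2 signal was 3.28, 4.75 and 3.56 on the KHSRP-KO arrays against 2.68, 2.52 and 2.82 on the WT arrays. The genotypes did not overlap, and KHSRP-KO array 2 stood far above all the others. The arrays stood in the same order as for *Calb1*, so the *Drd1* levels also followed the scan pairs. This order of the pairs was seen for 7.74% of probes above background on every array. The part of scan time in the *Drd1* difference was not tested. Means were 3.86 ± 0.78 (SD, n = 3) in KHSRP-KO and 2.67 ± 0.15 (SD, n = 3) in WT neocortex, a log2 difference of 1.19 (SE 0.37), or 2.28-fold. In KHSRP-KO the spread between arrays was thus wide, while neighbouring WT arrays were 0.16 and 0.14 apart.

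**Figure D1:**
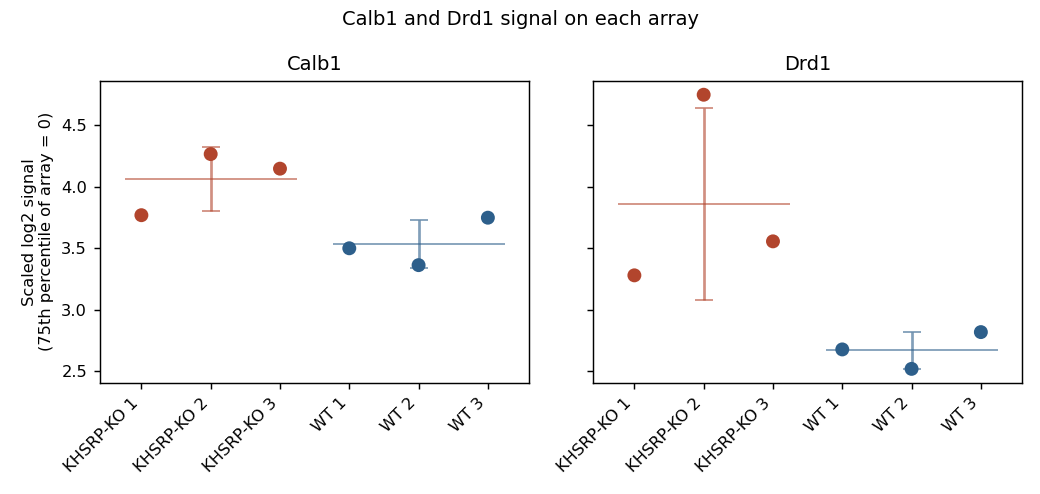
Scaled log2 signal (y axis, 75th percentile of the array set to 0) of *Calb1* and *Drd1* on each of the 6 arrays (x axis), with KHSRP-KO in red and WT in blue; horizontal lines are genotype means and bars are SDs of 3 arrays. *Calb1* of KHSRP-KO array 1 (3.77) lies beside WT array 3 (3.75), and *Drd1* of KHSRP-KO array 2 (4.75) lies above all other arrays.

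*Drd1* on KHSRP-KO array 2 was 1.33 higher on the log2 scale, or 2.51-fold, than the mean of KHSRP-KO arrays 1 and 3, which were 0.28 apart. KHSRP-KO array 3 shared its scan time and was 1.19 lower, so this gap is also present within 1 scan. An excess on this array at least as large was found for 0.582% of the 41908 probes well above background on all arrays. For *Calb1* the same excess was 0.31, and 19.5% of probes had one at least as large. Among neighbours in the order of *Drd1* levels, only the step from KHSRP-KO array 3 to KHSRP-KO array 2 exceeded the pooled SD of 0.56. KHSRP-KO array 1 was 0.46 above WT array 3, the highest WT array.

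Against WT neocortex, *Drd1* was 2.08 higher on the log2 scale, or 4.21-fold, on KHSRP-KO array 2 alone, and 0.75 higher, or 1.68-fold, on KHSRP-KO arrays 1 and 3. Within the scan pair that held both genotypes it was 1.38-fold higher in KHSRP-KO, where *Calb1* was 1.01-fold higher. Differences in this pair at least as large were found for 9.22% of probes in the case of *Drd1* and for 45% in the case of *Calb1*. The pair is 1 array against 1, and *Uty*, *Ddx3y*, *Kdm5d*, *Eif2s3y* and the hippocampal markers described below were lower on its KHSRP-KO array. Without scaling between arrays, which shifted the median of all probes by -0.29, the *Calb1* difference was 0.23 and that of *Drd1* 0.90. Both stayed above 0 under every processing tried, as the plot of differences by processing shows. This sign was largely fixed in advance, since both genes were chosen as higher on these arrays. With every KHSRP-KO array above every WT array, leaving out an array or blocking by scan time could not reverse it.

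**Figure D2:**
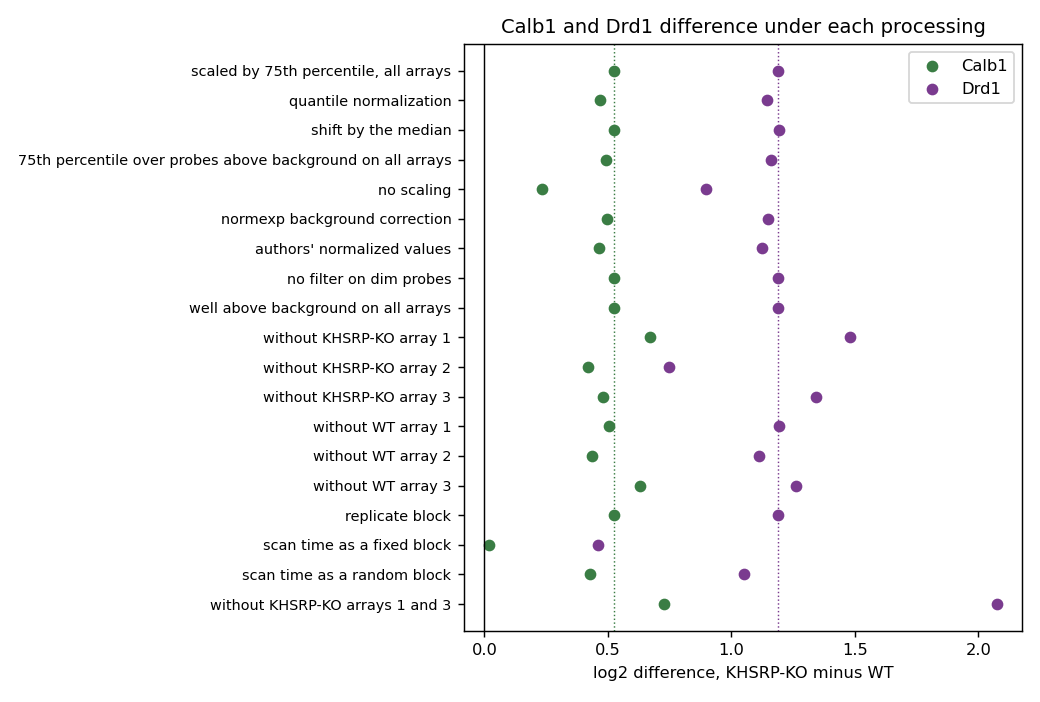
Log2 difference between KHSRP-KO and WT arrays (x axis) of *Calb1* (green) and *Drd1* (purple) under each processing (y axis); dotted lines mark the values with all arrays scaled by the 75th percentile. *Calb1* falls to 0.020 and *Drd1* to 0.46 with scan time as a fixed block, and *Drd1* reaches 2.08 without KHSRP-KO arrays 1 and 3.

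Over all probes, 9.26% of 48436 were higher and 7.03% were lower in KHSRP-KO neocortex at an unadjusted p under 0.05 from limma and a log2 change of at least 0.32. Without scaling, 1221 probes were higher and 7287 lower, in place of 4484 and 3405. Both *Calb1* and *Drd1* were among the higher probes, as the choice of the members requires, and neither was among the 0.0826% that were higher after Benjamini-Hochberg adjustment, when 0.0124% were lower. All KHSRP-KO arrays lay above all WT arrays for 12.4% of probes, and below them for 9.9%. The names of the genes described next come from the same table as the members, so whether such a gene was called, and in which direction, was largely fixed by how it was named.

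Of 40 markers of striatal projection neurons, 8 were named, *Drd1* among them, and *Drd2*, *Adora2a*, *Ppp1r1b*, *Penk*, *Tac1* and the remaining markers were not analysed here. Of the other 7, *Gpr52* was well above background on the KHSRP-KO arrays alone and is left out of the counts. Of the remaining 6, 5 were called higher and 1 lower, against 9.26% and 7.03% of all probes, directions that the naming had largely fixed. Their median log2 difference was 0.57 against -0.00056 over all probes. Their mean scaled log2 signal was 0.53, 1.39 and 0.65 on KHSRP-KO arrays 1, 2 and 3, and between 0.21 and 0.39 on the WT arrays, so that KHSRP-KO array 2 was highest, as for *Drd1*. Within the scan pair that held both genotypes the median difference was 0.24.

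*Rarb*, a retinoic acid receptor of striatal neurons, had a scaled log2 signal of -1.90, -0.78 and -1.93 on KHSRP-KO arrays 1, 2 and 3 and of -2.50, -2.85 and -2.65 on the WT arrays. *Nexn*, which encodes the actin-binding protein nexilin, read 0.36, 1.98 and 0.70 against -0.78, -0.44 and -0.52. *Gpr52*, an orphan receptor of striatal neurons that raises cyclic AMP, was not well above background on any WT array and was at least 2.24-fold higher in KHSRP-KO neocortex, with the WT level set on each array to the dimmest signal that counted as well above background, or to that of *Gpr52* if brighter. Each of these 3 had its highest level on KHSRP-KO array 2, by 1.14, 1.45 and 1.26 over the mean of KHSRP-KO arrays 1 and 3. *Spock3*, a secreted proteoglycan, and *Rgs7bp*, a membrane anchor of RGS proteins, exceeded those arrays by 0.50 and 0.27, and the transcription factor *Foxp1*, whose 2 probes moved the same way, by 0.03. *Bcl11b*, a transcription factor of striatal and deep-layer neurons, went the other way, with a log2 difference of -1.01, yet KHSRP-KO array 2 (-1.06) was within the range of the WT arrays (-1.32 to -0.73).

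In all, KHSRP-KO array 2 was the highest of the KHSRP-KO arrays for 5 of the 6 markers above background on every array, against 32.7% of such probes, with 30.4% lowest there. *Bcl11b* was among these 5, although its level on KHSRP-KO array 2 lay within the range of the WT arrays. The order of the KHSRP-KO arrays among themselves was not itself used to select the table. The 6 markers were nevertheless named through that selection, whereas the shares cover all probes. *Rarb*, *Nexn* and *Spock3* were highest on KHSRP-KO array 2 and above all WT arrays on every KHSRP-KO array, as *Drd1* was, whereas *Foxp1* peaked on KHSRP-KO array 3 and *Bcl11b* lay below all WT arrays on KHSRP-KO arrays 1 and 3, where *Drd1* lay above them. With most of the 40 markers unread, the part of striatal markers in the *Drd1* difference between genotypes was not tested.

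Markers of hippocampal neurons showed a different split of the same arrays. Of 24, 5 were named, all from the block of lower genes. All 5 were called lower, against 7.03% of all probes, a direction that the naming had fixed. Their median log2 difference was -1.59. *Tdo2* was not well above background on KHSRP-KO arrays 1 and 3, and the other 4 had a median of -1.58. The mean scaled log2 signal of these 4 was -0.40, 1.52 and -0.49 on KHSRP-KO arrays 1, 2 and 3, and 1.71, 1.34 and 2.39 on WT arrays 1, 2 and 3. KHSRP-KO array 2 thus lay within the range of the WT arrays, and KHSRP-KO arrays 1 and 3 were low. *Spink8*, a marker of CA1 pyramidal cells, read -1.74, 1.07 and -1.36 on the KHSRP-KO arrays against 1.55, 1.06 and 2.03 on the WT arrays. *C1ql2*, a synaptic organizer secreted by granule cells of the dentate gyrus, read -1.74, 0.09 and -2.26 against 0.01, -0.22 and 1.06. The remaining 3 were *Fibcd1*, *Lct* and *Tdo2*. Over all 5, the median difference from WT was -0.19 for KHSRP-KO array 2 and -2.28 for KHSRP-KO arrays 1 and 3.

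Calbindin is itself abundant in the hippocampus. Between genotypes, *Calb1* and these markers differed in opposite directions. How the genes were named had fixed this, since *Calb1* came from the block of higher genes and the markers from the lower block. KHSRP-KO arrays 1 and 3 had the lowest hippocampal marker levels and stood above the WT mean for *Calb1*, and between KHSRP-KO array 1 and WT array 3 the hippocampal markers differed by a median of -2.81 where *Calb1* differed by 0.020. Within genotypes the levels ran together in part, since the WT arrays stood in the order 2, 1 and 3 from lowest to highest for *Calb1* and for the mean of the markers, and KHSRP-KO array 2 was the highest of the KHSRP-KO arrays for both. The arrays with low hippocampal markers were the same 2 on which *Uty*, *Ddx3y*, *Kdm5d* and *Eif2s3y* were low. What these markers contribute to the levels of *Calb1* and *Drd1* was not tested.

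**Figure D3:**
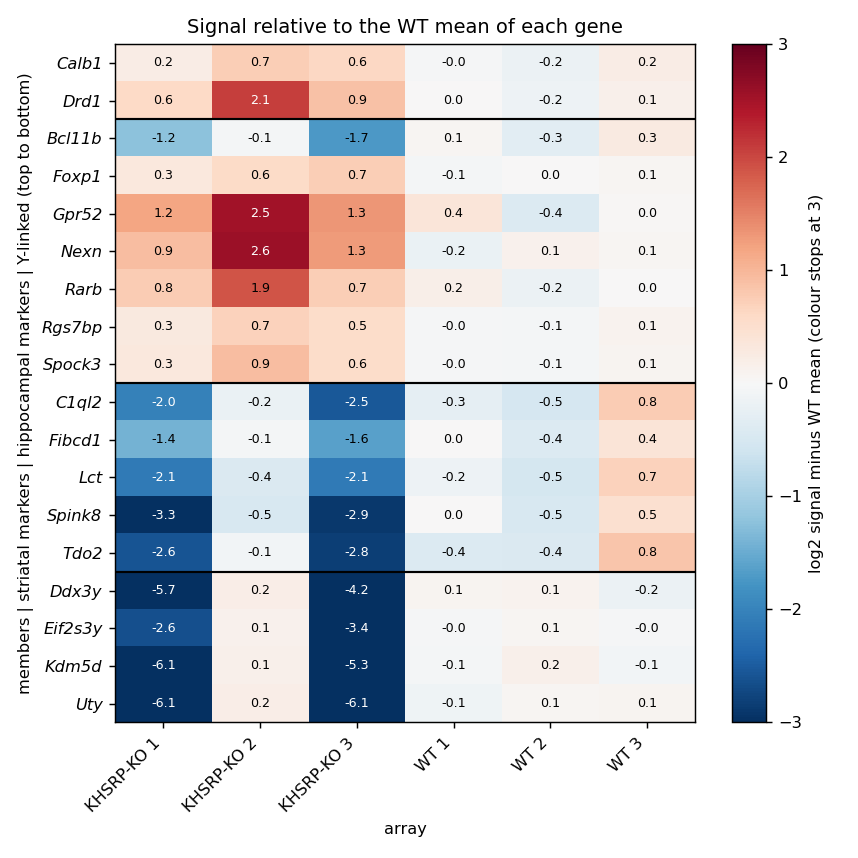
Log2 signal minus the WT mean of the gene (colour, values printed in the cells) for *Calb1* and *Drd1*, named striatal markers, named hippocampal markers and 4 Y-linked genes (rows, top to bottom) on the 6 arrays (columns). *Drd1* and *Gpr52*, *Nexn* and *Rarb* are highest on KHSRP-KO array 2, while hippocampal and Y-linked genes are low on KHSRP-KO arrays 1 and 3.

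Of 36 markers of neocortical layers, 5 were named, and all 5 were well above background on every array. *Slc17a7*, *Cux2* and the remaining defining markers were not analysed here. These 5 genes were named through a table selected on the genotype difference, so they cannot check the labelled tissue. Their mean scaled log2 signal was between 2.35 and 2.59 on the KHSRP-KO arrays and between 2.27 and 2.39 on the WT arrays. *Cplx3* and *Ccn2*, genes of the deepest cortical layer, had log2 differences of 0.41 and 0.51, *Nefh*, a neurofilament of large pyramidal cells, one of 0.50, and *Camk2a*, the kinase of excitatory synapses, one of -0.86. *Nrn1* differed by 0.34 and was not called. Layer genes thus stood on both sides of WT. The range of their mean levels, in which *Camk2a* partly offset the others, was narrower than that of the striatal or hippocampal markers.

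Besides *Calb1*, 3 of 34 markers of GABAergic interneurons were named, all from the block of higher genes. All 3 were called higher, against 9.26% of all probes, a direction that the naming had fixed. *Cort*, the neuropeptide cortistatin, read 4.31, 4.06 and 4.13 on the KHSRP-KO arrays and 3.48, 3.52 and 3.66 on the WT arrays. *Kcnc2*, a potassium channel of fast-spiking cells, read -2.47, -2.03 and -1.73 against -3.25, -2.82 and -3.14. *Lamp5*, a marker of neurogliaform cells, had a log2 difference of 0.44. Unlike *Calb1*, these genes kept their difference within the scan pair that held both genotypes, with a median of 0.66 there. None of the 3 was highest in step with *Drd1*, and their excess on KHSRP-KO array 2 was between -0.20 and 0.07. *Pvalb*, *Sst*, *Vip*, *Gad1* and *Gad2* were not analysed here.

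In the list of D1 receptor signalling, 9 of 47 genes were named. Apart from *Drd1*, 7 of them could be tested. By the brightest probe of each gene, 4 were called higher and 2, *Arc* and *Arrb2*, lower, against 9.26% and 7.03% of all probes. The block from which each gene was named had largely fixed these directions. The median log2 difference was 0.38. *Gnas*, the stimulatory G protein subunit, *Ppp1cb*, a catalytic subunit of protein phosphatase 1, and *Rgs4*, which speeds the turning off of G proteins, had log2 differences of 0.57, 0.90 and 0.68. *Crem*, a transcription factor that answers to cyclic AMP, had one of 0.38, and its other 2 probes ran the same way with 1.09 and 2.36. For *Arrb2*, which encodes an arrestin that binds activated receptors, the probes disagreed, with -1.49 for the brightest and 0.43 and 0.53 for the others, so *Arrb2* as a gene has no settled direction. *Th*, the enzyme that begins dopamine synthesis, was well above background on only 2 arrays.

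*Arc* and *Nr4a1*, genes that neuronal activity and cyclic AMP induce, split the KHSRP-KO arrays as the hippocampal markers did. *Arc* read 1.23, 2.73 and 0.79 on the KHSRP-KO arrays against 3.48, 2.81 and 3.14 on the WT arrays, a log2 difference of -1.56, and *Nr4a1* had one of -0.81 and was not called. On KHSRP-KO array 2 *Arc* was 1.71 and *Nr4a1* 1.23 above the mean of KHSRP-KO arrays 1 and 3. By contrast *Gnas*, *Ppp1cb*, *Rgs4* and *Crem* exceeded that mean by between -0.04 and 0.19. The excess of *Drd1*, 1.33, was thus near those of *Arc* and *Nr4a1* and apart from those of these 4. On KHSRP-KO array 2, however, *Drd1* lay above all WT arrays and *Arc* below them.

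Of 30 EF-hand genes, 4 were named, and the 3 besides *Calb1* came from the block of lower genes. *Kcnip1*, a calcium-binding partner of potassium channels, read 2.42, 1.44 and 0.91 on the KHSRP-KO arrays against 2.71, 2.77 and 2.84 on the WT arrays. *Cabp7* had a log2 difference of -1.28, and *Scgn*, which encodes secretagogin, had one of -1.19 and was not called. *Cabp7* and *Scgn* were low on KHSRP-KO arrays 1 and 3 and 1.16 and 1.78 higher on KHSRP-KO array 2. *Calb1* was therefore the one named gene of this family from the higher block. *Calb2* and *Pvalb*, its closest relatives as interneuron markers, were not analysed here.

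The likeness of other genes was measured by Pearson's r of the scaled log2 signal over the 6 arrays, among probes well above background on all arrays with an SD of at least 0.25, as a description with no test. For *Drd1*, the 5 named genes with the highest r were *Epha7*, *Spock3*, *Zfp708*, *Rarb* and *Nexn*, with r from 0.980 to 0.989. *Spock3*, *Rarb* and *Nexn* were also on the list of striatal markers. Most named genes came from the table selected on the genotype difference. A high r by level with *Drd1* or *Calb1* was therefore partly built in. *Epha7*, a receptor for ephrins, read -3.08, -2.40 and -2.83 on the KHSRP-KO arrays against -3.43, -3.47 and -3.32 on the WT arrays. In all, 178 of 22396 probes had an r of at least 0.95 with *Drd1*, and so had 34 of the 1437 named genes compared.

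For *Calb1*, the most alike were *Immp2l*, *Dph6*, *Topbp1*, *Cept1* and *Tmem68*, with r from 0.995 to 0.998, and 554 probes had an r of at least 0.95. None of these 5 genes was on any of the lists used here. *Immp2l*, a subunit of a mitochondrial inner membrane peptidase, read 0.94, 1.51 and 1.40 on the KHSRP-KO arrays and 0.56, 0.44 and 0.94 on the WT arrays, so that KHSRP-KO array 1 and WT array 3, of 1 scan pair, again lay side by side. The r between *Calb1* and *Drd1* was 0.91.

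**Figure D4:**
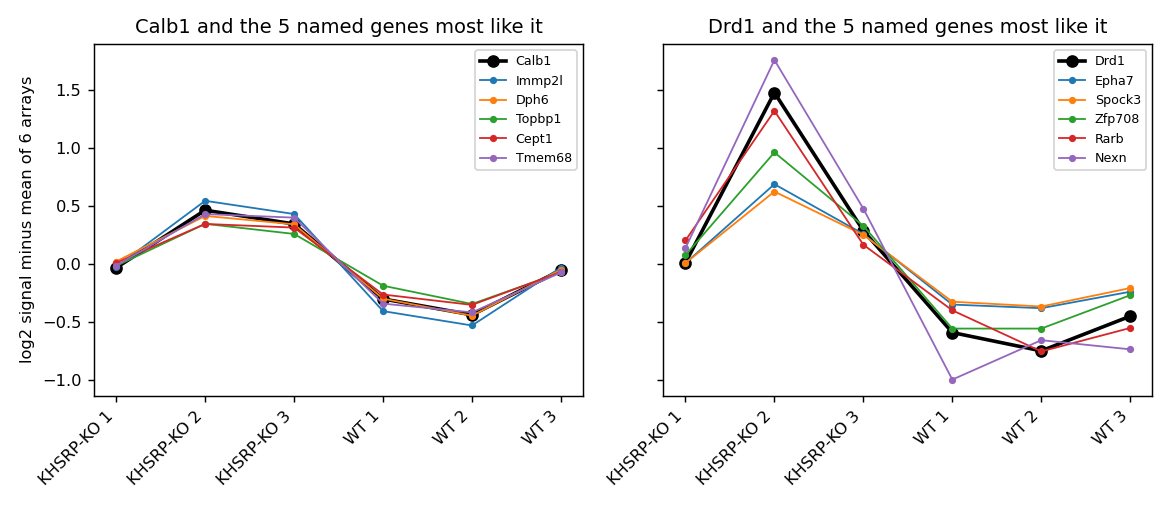
Log2 signal minus its mean over the 6 arrays (y axis) for *Calb1* and *Drd1* (black) and the 5 named genes with the highest Pearson's r with each (coloured lines), by array (x axis). Genes like *Drd1* peak on KHSRP-KO array 2, and genes like *Calb1* have nearly equal values on KHSRP-KO array 1 and WT array 3.

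With each array's deviation from its genotype mean in place of the level, which takes out the genotype, the order changed for *Drd1*. *Spink8* came first with an r of 0.99, followed by *Cuedc1*, *Epha7*, *Rasd1* and *Alox12b*. The striatal markers *Spock3*, *Rarb* and *Nexn* were no longer among the 5 most alike. *Spink8*, *Rasd1* and *Alox12b* had log2 differences of -2.22, -1.58 and -1.83 between KHSRP-KO and WT neocortex, and the likeness to *Drd1* lay in the excess of KHSRP-KO array 2 over KHSRP-KO arrays 1 and 3. For *Calb1*, *Ormdl1*, *Adal*, *Immp2l*, *Cept1* and *Dph6* were the most alike by deviations, and 3 of these 5 were also among the most alike by level. The r of the deviations of *Calb1* and *Drd1* was 0.74.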

How the data were processed

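Neocortex RNA was depleted of rRNA, labelled with Cy3 from oligo(dT) and random primers and hybridized to Agilent lncRNA and mRNA arrays. The authors deposited scanner files from Agilent Feature Extraction 11.0.1.1, where the processed signal is a linear intensity, background-subtracted and not scaled between arrays. Marks of 0 or 1 for spots well above background, saturated or outlying, deposited in the same files, are other values and not measurements. The authors also deposited normalized log2 values, for which the method is not given in the sources used here.

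Outlier spots and every kind of control spot were removed, log2 signals were averaged over spots with the same probe name, and each array was scaled to its 75th percentile. The 48436 probes that passed the background filter on 3 or more arrays were fitted with limma 3.58.1 (lmFit, eBayes; R 4.3.3), and p-values were adjusted by Benjamini-Hochberg over all of them. The fit was first tested on simulated data. Symbols came from the supplementary table (1522 higher probes by name, and 266 lower entries each matched to 1 probe by their 6 raw values) and, for 15 control genes, from RefSeq accessions. A gene with several probes was read from its brightest on average.

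The members and lists were chosen with earlier results of these data known. The text names the members, the named genes of each list with at most 4 examples described in full, the 5 named genes most like each member by level and by deviation, and Y-linked genes, which were chosen after their values were seen. p-values rest on the spread between mice within a genotype. This spread also holds differences of scan time and, among the KHSRP-KO arrays, of Y-linked signal. The alternatives were other scalings, normexp (offset 50) on the median spot signal and local background, the authors' values, filters on dim probes, each array left out, the replicate number and the scan time as blocks, the methods' test and eBayes with a trend. Scan time as a random block (statmod 1.5.0) and the comparison without KHSRP-KO arrays 1 and 3 were chosen after the data were examined. Summaries used pandas 2.3.3, and plots were drawn in matplotlib 3.10.9. Some list members are not reported here. No probe sequence or protein sequence was used here.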

Additional observations from a re-analysis of the deposited data

How the results depend on the processing

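The log2 differences of *Calb1* (0.52) and *Drd1* (1.19) stayed above 0 under all alternatives, a sign that the choice of the members had largely fixed. With scan time as a fixed block, which leaves the pair of KHSRP-KO array 1 and WT array 3, they were 0.020 and 0.46. Without scaling *Calb1* was 0.23, with all probes shifted by a median of -0.29. Without KHSRP-KO arrays 1 and 3, a comparison in which the lone array is assumed to vary like the others, *Drd1* was 2.08. With each array left out in turn, *Calb1* was between 0.42 and 0.67 and *Drd1* between 0.75, without KHSRP-KO array 2, and 1.48, without KHSRP-KO array 1. The excess of KHSRP-KO array 2 moved by less than the spread under all scalings.

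Of all probes, 4484 were higher and 3405 lower at the unadjusted p, and 40 and 6 after adjustment with limma. Without scaling, 1221 were higher and 7287 lower. With scan time as a fixed block, 1767 were higher and 1102 lower, and as a random block 2217 were lower. Without KHSRP-KO arrays 1 and 3, 6447 were lower, and the methods' test called 1815 lower. With an array left out, between 2520 and 6641 were higher and between 1495 and 6409 lower. Without KHSRP-KO array 1 there were 6641 higher and 6409 lower, without KHSRP-KO array 3 there were 2823 and 1966, without WT array 1 there were 2520 and 1495, and without WT array 2 there were 2752 and 1656. The replicate number as a block left 3540 higher and 2668 lower and did not change the difference of either gene. Arrays with the same number did not deviate together (correlations of -0.31, 0.10 and -0.31), and the mice were not treated as paired.

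Medians of the lists without the members kept their direction, which the naming of their genes had largely fixed. The hippocampal median (-1.59) was -2.81 with scan time as a fixed block, -0.19 without KHSRP-KO arrays 1 and 3, and ranged from -2.28 to -1.22 over the fits with an array left out. The layer median (0.41) was 0.12 without scaling, 0.19 with scan time as a fixed block, and ranged from 0.34 to 0.51. For the interneuron markers (0.62) it was 0.32 without scaling, 0.51 without KHSRP-KO arrays 1 and 3, and ranged from 0.54 to 0.67. The D1 list (0.38) gave 0.090 without scaling and ranged from 0.32 to 0.43, and the striatal list (0.59 with *Gpr52*, 0.57 without) from 0.53 to 0.74. The striatal range includes *Gpr52*, which was well above background on the KHSRP-KO arrays alone. With *Gpr52* the striatal median was 0.30 without scaling, 0.27 with scan time as a fixed block and 0.93 without KHSRP-KO arrays 1 and 3. The EF-hand median (-1.19) was -2.15 with scan time as a fixed block, -0.51 without KHSRP-KO arrays 1 and 3, and ranged from -1.67 to -1.03. Fewer arrays enter several of these fits, and otherwise the cause was not tested.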

Other observations

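Other named genes also had an excess on KHSRP-KO array 2 over KHSRP-KO arrays 1 and 3. Not all of them stood above the WT mean on this array, as *Drd1* did by 2.08, and they came from both blocks. Ordered by the difference of this array from the mean of KHSRP-KO arrays 1 and 3, a choice made after the values were seen, *Drd1* ranked 17 among named genes well above background on all arrays. *Uty*, from the lower block, came first with 6.29 on the log2 scale and differed from the WT mean by 0.19 on this array. *Spink8*, of the same block, ranked 3 with 2.62 and differed from the WT mean by -0.48. *Tlr7*, a sensor of single-stranded RNA, ranked 4 with an excess of 2.40 and was 4.98 above the WT mean on this array, and *Col3a1*, a fibrillar collagen, ranked 25 and was 2.19 above the WT mean. *Nr4a3*, an activity-induced nuclear receptor, ranked 20 with 1.17 and was 0.34 below the WT mean, read as -3.31 against -2.98, -3.32 and -2.62 on the WT arrays.

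Of the other lists, 2 of 11 astrocyte markers were named. *Fabp7* and *Slc1a2* had log2 differences of 0.88 and 0.48 and, like *Calb1*, only 0.11 and 0.15 between KHSRP-KO array 1 and WT array 3. Of 12 markers of the olfactory bulb, 3 were named, of which *Doc2g* differed by 0.35 and *Scgn* by -1.19, neither called, and *Th* was not tested. Of 13 thalamic, 11 choroid plexus, 13 oligodendrocyte and 11 microglial markers, 0 were named, so levels of these cells are not analysed here.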
